A study of Saccharomyces cerevisiae with 6 samples.

Results

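Baker's yeast, Saccharomyces cerevisiae, grows with or without oxygen, and the sample described here was taken 20 min after anaerobic cells were given air. It is 1 of 6 samples, and the comparison is between the RNA of the cells aerated for 20 min and a pool of anaerobic RNA, over every gene or unnamed array feature with a value, which were 6292 of 6470. Of these, 5612 carried a gene symbol and 680 did not. Cultures in nitrogen-purged bottles of synthetic complete medium reached exponential phase with amino acids, ergosterol and unsaturated fatty acids as supplements, and air was then supplied. Traces of oxygen had been removed with sodium dithionite. The pool held RNA from the aliquots taken before aeration (0 min), and separate flasks aerated for 5, 10, 60 and 120 min were each compared with the same pool. The pool was also compared with itself on 1 array, which serves here as the background. No strain, genotype or mutation was given in the labels, and none distinguishes the samples. Per aeration time, 2-colour arrays with swapped dyes were condensed into 1 set of values, so the 20 min time is 1 flask with no replicate, and differences from the pool carry no test.

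All values are log2 ratios of the aerated sample over the pool: 0 is no difference, 1 is 2-fold higher in the aerated cells and -1 is 2-fold lower. The log base of the deposited values was not stated and was read as natural. The direction is the likely one, from the sample titles, since the labels list both dyes for both channels. The labels put the aerated RNA in channel 1 at 20, 60 and 120 min but in channel 2 at 5 and 10 min, so they do not settle whether the deposited ratios at 5 and 10 min run the same way as those at 20 min. Ratios are given with the sign as deposited. Only the counts outside the range of the other times and the limma comparison are also given with 5 and 10 min turned. The courses of genes and lists are not, so statements on which time was highest or lowest hold for the deposited signs only. The labels of 2 comparison samples contradict themselves: the extraction text of the 60 min sample gives 20 min of aeration, and the description of the 5 min sample is that of the self-hybridisation. Times were taken from the titles and source names, and the labels of the 20 min sample carry no such contradiction. The ratios come from RNA of whole cultures, so fewer cells with a transcript and less of it per cell cannot be told apart. Genes with near-identical copies, such as the 2 copies of CUP1 and the seripauperin (PAU) family, may share signal.

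Oxygen is a substrate as well as the last acceptor of electrons in respiration. Heme, ergosterol and unsaturated fatty acids are all made by enzymes that use it, and yeast senses oxygen in part through the levels of heme and sterol. Heme acts through the activators Hap1 and the Hap2/3/4/5 complex, and through the repressor Rox1, while the activators Upc2 and Ecm22 respond to sterol. Air also brings reactive oxygen species, which the Yap1 and Skn7 regulators answer with peroxidases, thioredoxins and superoxide dismutases.

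The 20 min sample was centred on the pool, with a median of -0.002 and a median absolute deviation of 0.23, and the values ran from -3.90 for DST1 to 5.57 for GPX2. At least 2-fold higher than the pool were 141 genes, 2.24% of those measured, and at least 2-fold lower were 157, which is 2.50%. Were the deposited values on a log2 scale, the counts would be 57 and 60. With the self-hybridisation subtracted, 220 of the 3515 genes with both values were at least 2-fold higher and 215 at least 2-fold lower, against 65 and 113 of the same genes before subtraction. A larger distance was rare: 43 genes were at least 4-fold away, 18 of them higher and 25 lower. The pool against itself had a spread of the same size (median absolute deviation 0.241), with 36 genes at least 2-fold higher and 105 at least 2-fold lower of 3521. Over the 3515 genes with a value in both, 178 passed 2-fold at 20 min (5.06%) and 138 in the self-hybridisation (3.93%), and 4 passed it in both. Past 4-fold there were 31 at 20 min and 16 in the pool against itself. The number of genes past 2-fold is thus of the same order as in the background, and being past 2-fold does not by itself set a gene apart from it. Of the 21 genes printed as a pair of features with both values at 20 min, none differed by 2-fold between features. Their median gap was 0.256 and the largest 0.874, for YAR061W, so the error of 1 feature within the sample was an SD of 0.252.

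**Figure D1:**
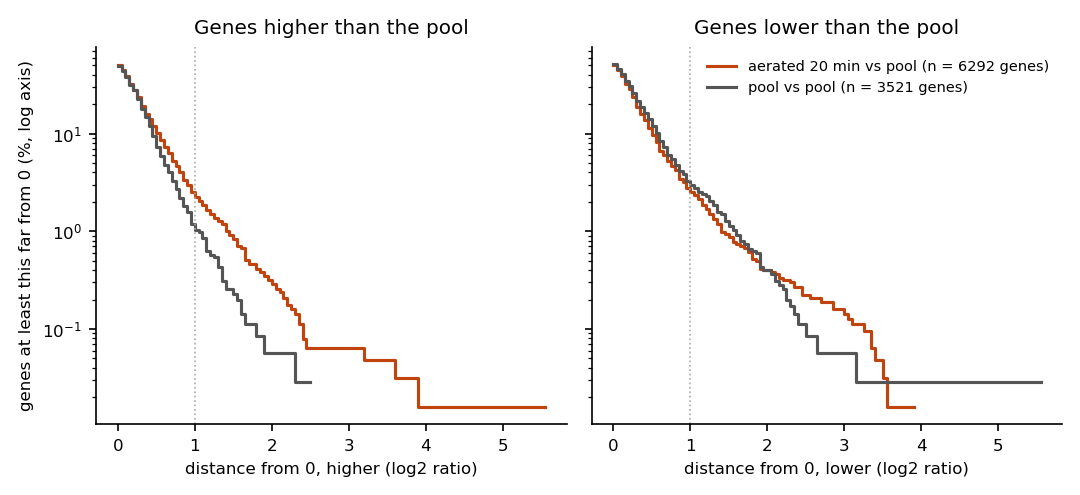
Percent of genes (log axis) at least a given distance from 0, in log2 ratio, for the cells aerated for 20 min against the pool and for the pool against itself. The left panel holds genes higher than the pool and the right panel genes lower, and the dotted line marks 2-fold. Above the pool the 20 min curve lies over the self-hybridisation, with 141 of 6292 genes past 2-fold against 36 of 3521, while below it the curves run close together until about 4-fold.

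Many more genes had a value at 20 min than in the self-hybridisation, so many genes have no background of their own. Of the 141 genes at least 2-fold higher, 76 had no self-hybridisation value, and of the 157 at least 2-fold lower, 44 had none. Over all 6292 genes, 2777 had none. Among those 2777, 2.74% were at least 2-fold higher and 1.58% lower. Among the 3515 with a value, 1.85% were higher and 3.2% lower, so having a background value went with direction. The threshold itself cut through a continuous range: NOP1 at 1.01 and GCD10 at 1.0 were just inside it, and RRP15, which rounds to 1.0, ERO1 at 0.99, CPR6 at 0.99 and SOD2 at 0.99 were just outside. On the other side GUP2 at -1.0 was just inside, and HIS5 at -0.99 was just outside. Of the genes past 2-fold, 74 of the higher and 69 of the lower belonged to at least 1 of 46 gene lists by which the results are ordered. The lists and members were chosen with earlier results of these data known, so list shares beside those of all genes are descriptions only. Some genes are in more than 1 list and are counted in each.

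The genes farthest above the pool included genes of oxidant defence, copper binding, respiration and ribosome assembly. GPX2, a glutathione peroxidase that reduces lipid hydroperoxides, was 47.4-fold higher than the pool. Its log2 ratios were 2.72, 4.85, 5.57, 1.2 and 1.36 at 5, 10, 20, 60 and 120 min, with no self-hybridisation value, so 20 min was the highest of the 5 times. The metallothionein genes CUP1-1 and CUP1-2, whose proteins bind copper, came next at 3.86 and 3.59. For CUP1-1 the course was 0.89, 5.56, 3.86, 0.49 and 1.92 at 5, 10, 20, 60 and 120 min, against -0.38 in the self-hybridisation, so these genes stood higher at 10 min than at 20 min. CYC1, the aerobic form of cytochrome c, was 8.94-fold higher, with a course of -1.19, 1.76, 3.16, 2.61 and 0.69 at 5, 10, 20, 60 and 120 min, against -0.66 in the self-hybridisation. At 5 min it was below the pool, and 20 min was the highest of its 5 values. Then came GRE2, a methylglyoxal reductase, at 2.44, the ribosome assembly GTPases NOG2 and NOG1 at 2.38 and 2.31, BUD2, a regulator of bud-site selection, at 2.35, and the thioredoxin reductase gene TRR1 at 2.33. Also among the 25 highest named genes were ZPR1 at 2.13, YML131W at 2.07, YLR108C at 2.04, STE20 at 1.96 and MRT4 at 1.84.

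The lowest genes were of other kinds. DST1, which encodes the transcription elongation factor TFIIS, was 14.9-fold lower, with log2 ratios of -2.25, -4.4, -3.9, -2.29 and -0.02 at 5, 10, 20, 60 and 120 min and no self-hybridisation value. It was lower still at 10 min, and at 120 min it was level with the pool. DAN1, a cell wall mannoprotein of anaerobic cells, was at -3.51 and RTC2, a vacuolar membrane protein, at -3.49. Below -3 were also the arginine genes ARG4 and ARG3 at -3.38 and -3.31, the alcohol dehydrogenase gene ADH5 at -3.33 and TMT1, a methyltransferase of trans-aconitate, at -3.07. INA1 stood at -2.99 and MIS1, a mitochondrial folate enzyme, at -2.84. The course of ADH5 was -0.46, -3.18, -3.33, -2.02 and -0.82 at 5, 10, 20, 60 and 120 min, against 0.49 in the self-hybridisation, so it was near its lowest at both 10 and 20 min. CTR1, the high-affinity copper importer, was at -2.42, opposite in sign to CUP1-1 and CUP1-2, and its other values were all below the pool too, from -1.15 at 5 min to -2.16 at 10 min. SSU1, a sulfite pump, was at -2.16 and RGI1, a gene of respiratory growth, at -2.14. Also among the 25 lowest named genes were ARO5 at -2.5, NRS1 at -2.43 and YNL018C at -1.91.

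**Figure D2:**
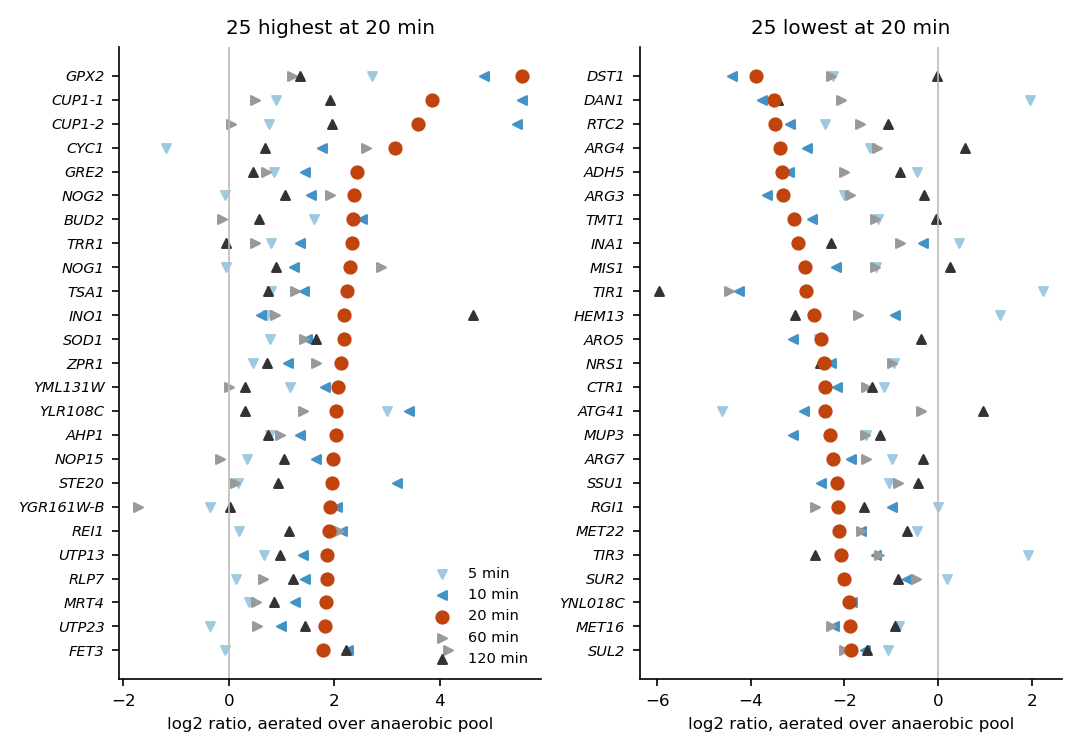
Log2 ratio over the anaerobic pool (horizontal axis) of the 25 named genes highest and the 25 lowest at 20 min, with the values of the same genes at 5, 10, 60 and 120 min as other markers. GPX2 at 5.57 and DST1 at -3.90 are the ends, and for CUP1-1, CUP1-2 and STE20 the 10 min value lies above that of 20 min.

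Genes known to depend on the absence of oxygen or heme were split at 20 min between members far below the pool and members near it. Of 7 measured DAN and TIR mannoprotein genes, which are expressed in anaerobic cells, 5 were at least 2-fold lower (71.4%, against 2.50% of all genes) and none higher, with a median of -1.24. TIR1 had a course of 2.24, -4.25, -2.83, -4.46 and -5.97 at 5, 10, 20, 60 and 120 min, against -0.11 in the self-hybridisation, and DAN1 one of 1.96, -3.77, -3.51, -2.08 and -3.42 at 5, 10, 20, 60 and 120 min, against -0.08. Both were above the pool at 5 min and far below it from 10 min on, and the 20 min value of TIR1 was its least negative after 5 min. TIR3 at -2.07, TIR4 at -1.24 and TIR2 at -1.23 were also lower, whereas PAU23 at -0.18 and DAN4 at 0.28 were not far from the pool. The 18 seripauperins with a value had a median of -0.25, with 2 above 0. PAU5 alone was past 2-fold, at -1.38 (5.56%, against 2.50% of all genes lower).

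Among 21 genes of the Rox1 group and the aerobic and hypoxic isoform pairs, 7 were at least 2-fold lower (33.3%, against 2.50% of all genes). Of the same genes 1 was at least 2-fold higher (4.76%, against 2.24%), and the median was -0.02. HEM13, the oxygen-using coproporphyrinogen oxidase of heme synthesis, was at -2.66, and its course was 1.32, -0.92, -2.66, -1.71 and -3.06 at 5, 10, 20, 60 and 120 min, against 0.02 in the self-hybridisation. The mannoprotein gene TIP1 was at -1.67 and CYC7, the hypoxic form of cytochrome c, at -1.25, opposite to CYC1. The hypoxic isoforms did not share 1 pattern: COX5B, a cytochrome oxidase subunit, was at -0.62 beside its aerobic partner COX5A at -0.11, HMG2 at -1.05 beside HMG1 at 0.17, and ANB1 at 0.03 beside HYP2 at 0.33. Only HMG2 of these 3 hypoxic members was past 2-fold, and its self-hybridisation value was 0.67. Of the ADP/ATP carriers, PET9 stood at 0.60, AAC1 at -0.02 and AAC3 at 0.32.

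The repressor gene ROX1 itself was at 0.72 at 20 min, less than 2-fold from the pool. Its course was 2.69, 2.29, 0.72, 0.54 and 0.80 at 5, 10, 20, 60 and 120 min, against -0.24 in the self-hybridisation, so 5 and 10 min were the high times. Of the 19 regulators of oxygen, heme, sterol and glucose responses, 2 were at least 2-fold lower (10.5%, against 2.50% of all genes), and both are activators. UPC2, the sterol-sensing activator, had 0.35, -0.27, -1.61, -0.66 and -0.34 at 5, 10, 20, 60 and 120 min, with no self-hybridisation value. HAP1, the heme-responsive activator, had 0.28, 0.00, -1.53, -0.44 and -0.05 at 5, 10, 20, 60 and 120 min, against 0.38 in the self-hybridisation. In both, 20 min was the lowest of the 5 values by a wide gap. ECM22, the relative of UPC2, was at -0.96 with a self-hybridisation value of 1.06. MGA2, an activator of OLE1, was at -0.67 and at -0.60 in the self-hybridisation, so the background array leaned the same way. The genes of the Hap2/3/4/5 complex were within a narrow range at 20 min: HAP4 at -0.05, HAP2 at -0.08, HAP3 at 0.21 and HAP5 at 0.00. MIG2, a glucose repressor, was the 1 regulator at least 2-fold higher (5.26%, against 2.24% of all genes), at 1.38. Its course was 2.64, -0.01, 1.38, 2.06 and 0.60 at 5, 10, 20, 60 and 120 min.

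The remaining regulators were closer to the pool. MIG3 was at 0.52, SUT1 at 0.54, MOT3 at 0.40, IXR1 at -0.04, TUP1 at -0.10, MIG1 at -0.12, SPT23 at -0.23, CYC8 at -0.32 and SUT2 at -0.40. In the self-hybridisation MOT3 was at -0.10, IXR1 at -0.22, TUP1 at -0.10, SPT23 at -0.45, CYC8 at 0.37 and SUT2 at -0.10.

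In ergosterol synthesis, 2 of 25 genes were at least 2-fold lower (8%, against 2.50% of all genes) and none higher. Above 0 were 7 of the 25, against 49.8% of all genes, and the median was -0.12. ERG11, the lanosterol demethylase, had 0.59, -0.12, -1.44, -0.52 and -0.18 at 5, 10, 20, 60 and 120 min, against 0.13 in the self-hybridisation. HMG2, a reductase of the early mevalonate steps, which use no oxygen, was the other, at -1.05. Of the further enzymes that use oxygen directly, ERG25 was at -0.90, ERG5 at -0.83, ERG1 at -0.78 and ERG3 at -0.12. ERG24 was at -0.94 with -1.7 in the self-hybridisation, so the pool against itself was farther from 0, in the same direction. The remaining steps before ERG1, which use no oxygen, ran from ERG9 at -0.25 and ERG8 at -0.23 through MVD1 at -0.08, ERG12 at -0.04, ERG20 at 0.04, ERG10 at 0.15, HMG1 at 0.17 and ERG13 at 0.20 to IDI1 at 0.62. With HMG2 among them, the steps with and without oxygen overlapped in their values. In fatty acid and sphingolipid synthesis, 3 of 16 genes were at least 2-fold lower (18.8%, against 2.50% of all genes), none higher, and the median was -0.24. These were SUR2, the sphinganine hydroxylase, at -2.02, the acyl-CoA synthetase gene FAA4 at -1.29 and OLE1, the only fatty acid desaturase of this yeast, at -1.26. The other hydroxylase gene, SCS7, was at -0.82, and the synthase genes FAS1 and FAS2 at -0.58 and -0.47.

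Of 11 genes of sterol uptake and esterification, DAN1 and ARE1 were at least 2-fold lower (18.2%, against 2.50% of all genes), ARE1 at -1.11. DAN1 was also counted among the DAN and TIR genes. The importer genes AUS1 and PDR11, which take up sterol in anaerobic cells, were at -0.41 and -0.21. The rest were SUT1 at 0.54, PRY2 at 0.23, ARE2 at 0.13, PRY1 at 0.12, YEH2 at 0.11, YEH1 at -0.31 and TGL1 at -0.64. In heme synthesis HEM13 was the only 1 of 9 genes past 2-fold (11.1%, against 2.50% of all genes lower). HEM14, which follows HEM13 in the pathway and also uses oxygen, was at -0.81, HEM1 at -0.47 with 1.26 in the self-hybridisation, HEM15 at -0.28, HEM12 at -0.02, HEM4 at -0.01, HEM2 at 0.01, HEM3 at 0.37 and the heme oxygenase gene HMX1 at 0.20.

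A few genes stood apart at 20 min from every other aerated sample, and in this comparison the shared pool cancels as long as the ratios of all times run the same way. Of 5771 genes with a value at all 5 times, 6 were at least 2-fold below the lowest of the other 4 times (0.104%) and 9 at least 2-fold above the highest (0.156%). The same counts were 24 and 25 at 5 min, 5 and 5 at 10 min, 456 and 328 at 60 min, and 4 and 14 at 120 min, so 20 min had few such genes, and the 60 min sample had by far the most. The 60 min sample was wider over all genes, with a median absolute deviation of 0.551 against 0.23 at 20 min. At least 2-fold from the pool were 24.3% of its genes, against 4.74% at 20 min. Values at 60 min, here and in the courses of genes and lists, carry this wider spread. Of the 6 below, which were picked by these same values, 5 have a symbol, and the roles of those 5 lie in lipids, metals and heme. IZH1, a membrane protein of the zinc and lipid response, had 0.49, -0.12, -1.78, 0.76 and 0.03 at 5, 10, 20, 60 and 120 min, against -0.39 in the self-hybridisation. FET4, a low-affinity iron and copper transporter that Rox1 represses in air, had 0.26, 0.21, -1.65, -0.17 and -0.30 at 5, 10, 20, 60 and 120 min, against -0.26. SUR2 had 0.19, -0.67, -2.02, -0.48 and -0.85 at 5, 10, 20, 60 and 120 min, against -0.01, and LAC1, a ceramide synthase, had -0.06, -0.42, -1.79, -0.59 and -0.75 at 5, 10, 20, 60 and 120 min with no self-hybridisation value.

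HAP1 was the fifth of these, and UPC2, OLE1 and ERG11 came just short of the 2-fold gap, at 0.96, 0.94 and 0.92 below their lowest other value. FAA4, with 0.29, 0.26, -1.29, -0.16 and -0.42 at 5, 10, 20, 60 and 120 min, and the succinate dehydrogenase gene SDH2, with 0.04, 0.37, -0.87, 0.39 and 0.55 at 5, 10, 20, 60 and 120 min, were next in kind. NDI1, the internal NADH dehydrogenase, had 0.14, 0.27, -0.98, -0.11 and 0.14 at 5, 10, 20, 60 and 120 min, and was 0.87 below its lowest other time. In each of these genes 60 and 120 min lay closer to the pool than 20 min, which follows largely from their choice by a low 20 min value. Without the 60 min sample, 16 genes were at least 2-fold below and 16 at least 2-fold above the range of the remaining times, and without the 5 min sample the counts were 7 and 14. With the ratios at 5 and 10 min turned, 29 genes were below and 24 above. IZH1, FET4, SUR2, LAC1 and HAP1 were still among those below, while of the 9 above only PHO23 was. The genes named here beyond the 2-fold gap were singled out after their values were seen.

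**Figure D3:**
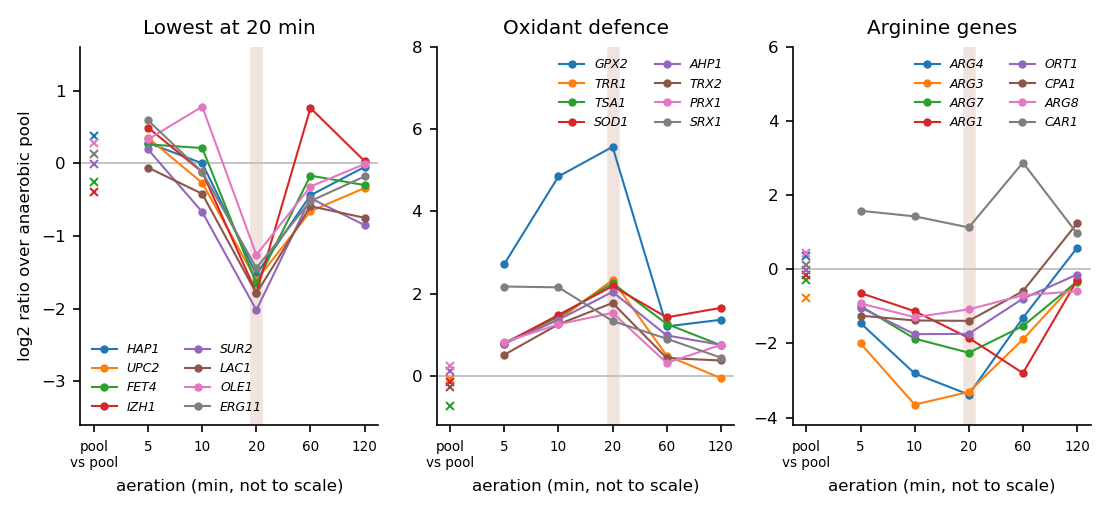
Log2 ratio over the anaerobic pool at 5, 10, 20, 60 and 120 min (evenly spaced, not to scale) for 3 groups of genes, with the self-hybridisation as crosses at the left where it has a value; the shaded band marks 20 min. In the left panel the genes chosen for being lowest at 20 min lie between -2.02 and -1.26 there, in the middle panel GPX2 reaches 5.57, and in the right panel ARG4 and ARG3 lie at -3.38 and -3.31.

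Limma tested the 20 min sample against the mean of the other 4 aerated samples, which is free of the pool. No gene passed an adjusted p under 0.05 (0% of 5771), the smallest adjusted p was 0.999, and 47 genes had an unadjusted p under 0.05, of which 24 were higher and 23 lower. The spread in that test is that between the other 4 times, with a median SD of 0.396 per gene, so changes over time count as error, and the lone 20 min sample is assumed to vary as they do. The lowest unadjusted p was that of IZH1, with a difference of -2.07 ± 0.45 (SE; limma, unadjusted p = 0.0028, adjusted p = 0.999). HAP1 differed by -1.48 ± 0.39 and FET4 by -1.65 ± 0.39. By size, the largest differences on the low side were those of INA1 at -2.25, ARG4 at -2.13, IZH1, TMT1 at -1.72, ADH5 at -1.71, MIS1 at -1.69, DAN1 at -1.68, DST1 at -1.66, FET4 and SUR2 at -1.57. On the high side were YLR162W at 3.09, GPX2 at 3.03, OLI1 at 2.66 and CYC1 at 2.19, followed by reading frames with systematic names only, YGR161W-B at 1.93, YDR365W-A at 1.88, YLR227W-B at 1.87, YBL005W-A at 1.8, YDR261C-C at 1.79 and YOL103W-B at 1.77.

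Most of the 9 genes above the range of the other times carry systematic names only. OLI1, a mitochondrially encoded subunit of ATP synthase, had -2.4, -0.95, 1.65, -0.98 and 0.29 at 5, 10, 20, 60 and 120 min and no self-hybridisation value. YLR162W had -1.51, -1.88, 1.49, -0.22 and -2.79 at 5, 10, 20, 60 and 120 min, against -0.49 in the self-hybridisation, and PHO23, a subunit of a histone deacetylase complex, was at 1.54. The others were YDR261W-A, YDR365W-A, YGR161W-A, YOL103W-B, YDR261C-C and 1 unnamed feature, for which the tables used here give no function. These lay between 0.32 and 0.62 at 20 min, less than 2-fold from the pool, and below the pool at every other time. YDR365W-A had -0.55, -0.48, 0.62, -2.4 and -1.59 at 5, 10, 20, 60 and 120 min, and YOL103W-B had -0.54, -0.6, 0.52, -2.41 and -1.42. Whether reading frames with such similar courses share signal was not tested. GRE2 was at the edge of the 9 genes, 1.0 above its highest other value, with 0.86, 1.44, 2.44, 0.71 and 0.45 at 5, 10, 20, 60 and 120 min.

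Respiratory genes were mixed at 20 min. Of 28 genes of the respiratory chain, 14 were above 0, and the median was 0.03, against 0.44 at 10 min and 0.51 at 120 min. At least 2-fold higher were 2 (7.14%, against 2.24% of all genes), and none was 2-fold lower. CYC1 was 1 of the 2, and NDE1, the external NADH dehydrogenase, was the other, with -0.19, 1.87, 1.76, 2.57 and 1.5 at 5, 10, 20, 60 and 120 min. The lowest were NDI1 at -0.98, SDH2 at -0.87, CYB2 at -0.57 and SDH1 at -0.42. All 17 nuclear genes of ATP synthase and its assembly were above 0, by a median of 0.39, from ATP10 at 0.03 to ATP19 at 0.77, and none reached 2-fold. The same genes had a median of -0.48 in the self-hybridisation over 15 members, so they leaned the other way in the background array. In cytochrome oxidase assembly, 2 of 22 were at least 2-fold higher (9.09%, against 2.24% of all genes). These were CYT2, which attaches heme to cytochrome c1, at 1.52, and COX17, a copper chaperone, at 1.19.

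Coenzyme Q and the citric acid cycle did not share that lean. Of the 10 coenzyme Q genes, 2 were above 0 and the median was -0.36, from CAT5 at -0.64, with COQ9 at -0.58, COQ3 at -0.41, COQ10 at -0.38, COQ6 at -0.37, COQ4 at -0.35, COQ1 at -0.09 and COQ8 at -0.04, to COQ5 and COQ2 at 0.07 and 0.07. The 24 citric acid and glyoxylate cycle genes had a median of -0.22 with none past 2-fold, from PYC2 at -0.72 to PYC1 at 0.86, the 2 genes of pyruvate carboxylase. The 74 genes of the mitochondrial ribosome had 73 above 0 and a median of 0.46, although none reached 2-fold; the highest was MRPS16 at 0.96 and the lowest MRP8 at -0.01. Their median was 0.09, 0.28, 0.46, 0.33 and 0.18 at 5, 10, 20, 60 and 120 min, against -0.11 in the self-hybridisation over 56 members. Over all 6292 genes, 49.8% were above 0. Mitochondrial protein import had 31 of 35 above 0, with a median of 0.31, from TOM1 at -0.23 to TOM5 at 0.94.

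The 19 genes of the mitochondrial genome, gathered after their values were seen, had a median of 0.55 at 20 min, with 3 at least 2-fold higher and 1 lower. Over all genes, 2.24% were at least 2-fold higher and 2.50% lower. OLI1 was at 1.65, ATP6, another subunit of ATP synthase, at 1.36 and AI1, an intron-encoded protein of COX1, at 1.06, while Q0255 was at -1.49. The cytochrome oxidase genes COX1, COX2 and COX3 were at 0.72, 0.52 and -0.10 and the cytochrome b gene COB at -0.19. Only 1 of the 19 had a self-hybridisation value, so the background of this group is unknown.

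Among the oxidant defence genes, most of those past 2-fold belonged to the peroxiredoxin and thioredoxin system. Of 13 genes of the peroxiredoxin and thioredoxin system, 6 were at least 2-fold higher (46.2%, against 2.24% of all genes) and none lower, with a median of 0.53. These were TRR1, thioredoxin reductase, the peroxiredoxin genes TSA1 at 2.25 and AHP1 at 2.04, the thioredoxin gene TRX2 at 1.77, the mitochondrial peroxiredoxin PRX1 at 1.53 and the sulfiredoxin SRX1 at 1.33. TRR1 had 0.80, 1.36, 2.33, 0.49 and -0.06 at 5, 10, 20, 60 and 120 min, against -0.08 in the self-hybridisation, and TSA1 had 0.80, 1.43, 2.25, 1.26 and 0.74 at 5, 10, 20, 60 and 120 min, against -0.74. For these 2 genes, AHP1, TRX2 and PRX1, 20 min was the highest of the 5 times, whereas SRX1 was higher at 5 min and 10 min, at 2.17 and 2.15. The mitochondrial counterparts TRX3 and TRR2 were at 0.29 and -0.49, TRX1 at 0.25, TSA2 at 0.53, DOT5 at 0.39, MXR1 at 0.05 and MXR2 at -0.06.

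Of 8 genes of superoxide and peroxide removal, 2 were at least 2-fold higher (25%, against 2.24% of all genes) and 1 lower (12.5%, against 2.50%). SOD1, the copper-zinc superoxide dismutase, was at 2.18 and CTA1, the peroxisomal catalase, at 1.26. SOD1 had 0.78, 1.48, 2.18, 1.42 and 1.65 at 5, 10, 20, 60 and 120 min, against -0.15 in the self-hybridisation. CTT1, the cytosolic catalase under Msn2 and Msn4, was the 1 gene at least 2-fold lower, at -1.46, so the 2 catalase genes lay on opposite sides. The manganese dismutase SOD2 was at 0.99, the cytochrome c peroxidase CCP1 at 0.71, MTM1 at 0.23, the copper chaperone CCS1 at 0.17 and the flavohemoglobin YHB1 at -0.35. In the glutathione system GPX2 was the only 1 of 19 past 2-fold (5.26%, against 2.24% of all genes higher). Its relatives HYR1 and GPX1 were at 0.17 and -0.48, the glutathione synthesis gene GSH1 at 0.60 and the reductase GLR1 at 0.26.

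None of 12 oxidant and metal regulators passed 2-fold. YAP1 was the highest at 0.97, followed by SKN7 at 0.56, YAP5 and AFT1 both at 0.40, RPN4 at 0.29 and ZAP1 at 0.16. Below 0 were CUP2 at -0.23, AFT2 at -0.26, STB5 at -0.27, MAC1 at -0.34, CAD1 at -0.53 and YBP1 at -0.61. The pentose phosphate pathway, a source of NADPH for these systems, had none of 11 genes past 2-fold, with GND1 highest at 0.49, TAL1 at 0.31, RKI1 at 0.37, ZWF1 and TKL1 at 0.17 and 0.17, and RPE1 at 0.04. TKL2 at -0.17, SOL3 at -0.24, GND2 at -0.35, NQM1 at -0.48 and SOL4 at -0.95 were below 0. Of the 11 aryl-alcohol dehydrogenase and old yellow enzyme genes, AAD10 alone passed 2-fold, at -1.25 (9.09%, against 2.50% of all genes lower). Beside it were OYE3 at 0.90, ADH6 at 0.78 and OYE2 at -0.58. The others were AAD4 at 0.21, AAD6 at 0.16, AAD15 at 0.04, AAD14 at 0.01, ARI1 at -0.01, AAD3 at -0.09 and ADH7 at -0.31.

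Metal genes varied member by member. Of 9 copper genes, only CUP1-1 and CUP1-2 were at least 2-fold higher (22.2%, against 2.24% of all genes) and CTR1 at least 2-fold lower (11.1%, against 2.50%). FRE7 was at 0.61, the chaperone ATX1 at 0.49, CCC2 at 0.28, CRS5, another metallothionein, at 0.13, CTR3 at 0.08 and CTR2 at -0.02. Of 26 iron genes, 4 were at least 2-fold higher (15.4%, against 2.24% of all genes) and 2 lower (7.69%, against 2.50%). FET3, the multicopper oxidase of high-affinity iron uptake, had -0.07, 2.26, 1.78, 4.17 and 2.22 at 5, 10, 20, 60 and 120 min, against -0.34 in the self-hybridisation, and its partner permease FTR1 was at 1.43. For FET3 the 20 min value was lower than those of 10, 60 and 120 min. ISU2, an iron-sulfur scaffold, was at 1.29 and SIT1, a siderophore transporter, at 1.18, while FET4 and the mannoprotein FIT3, at -1.19, were lower. In iron-sulfur assembly ISU2 was the only 1 of 19 past 2-fold (5.26%, against 2.24% of all genes higher), and ISU1 was at -0.14. Of the 16 zinc genes, IZH1 and its relative IZH4, at -1.45, were at least 2-fold lower (12.5%, against 2.50% of all genes). The importer ZRT1 was at 0.17.

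Amino acid and sulfur genes held many of the lowest values. Of 14 arginine genes, 7 were at least 2-fold lower (50%, against 2.50% of all genes) and 1 higher (7.14%, against 2.24%), with a median of -1.03. ARG4, the argininosuccinate lyase, had -1.45, -2.81, -3.38, -1.31 and 0.58 at 5, 10, 20, 60 and 120 min, against 0.37 in the self-hybridisation. ARG3, the ornithine carbamoyltransferase, had -2.0, -3.65, -3.31, -1.89 and -0.30 at 5, 10, 20, 60 and 120 min, against -0.76. Both were low at 10 and 20 min and near or above the pool at 120 min. ARG7 was at -2.25, ARG1 at -1.85, the carrier gene ORT1 at -1.74, CPA1 at -1.39 and ARG8 at -1.08. The 1 gene on the other side was CAR1, the arginase that breaks arginine down, with 1.58, 1.43, 1.13, 2.88 and 0.97 at 5, 10, 20, 60 and 120 min. The regulator genes ARG80, ARG81 and ARG82 were at 0.29, 0.18 and -0.27.

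The other amino acid genes under the activator Gcn4 had 14 of 52 at least 2-fold lower (26.9%, against 2.50% of all genes) and none higher, 6 above 0 (49.8% of all genes were) and a median of -0.73. The lowest were HOM3, the aspartate kinase of threonine and methionine synthesis, at -1.83, LYS1 at -1.76, HIS4 at -1.74 and HIS7 at -1.49. GCN4 itself was at 0.02. The median of this list was -0.37, -0.56, -0.73, -0.28 and -0.12 at 5, 10, 20, 60 and 120 min, against 0.12 in the self-hybridisation, so 20 min was its lowest time. In methionine synthesis and sulfur assimilation 12 of 31 were at least 2-fold lower (38.7%, against the same 2.50%), none higher, and the median was -0.73. MUP3, a low-affinity methionine permease, was at -2.32, MET22 at -2.12, MET16, the PAPS reductase, at -1.89 and SUL2, a sulfate permease, at -1.87. In the self-hybridisation they were at -0.68, 0.14, 0.41 and -0.21, in that order. The activator gene MET4 was at 0.18 and its cofactor gene MET28 at -1.5. Of the 25 purine and one-carbon genes, MTD1, at -1.52, and ADE2, at -1.07, were at least 2-fold lower (8%, against 2.50% of all genes). BNA3 was the only 1 of 12 genes of NAD synthesis past 2-fold, at -1.13 (8.33%, against 2.50% of all genes lower). NMA1 was at 0.58, NPT1 at 0.39, BNA2 at 0.12, BNA5 at 0.08, BNA4 at 0.08 and BNA6 at -0.01. The rest were QNS1 at -0.12, BNA7 at -0.23, NMA2 at -0.28, the nicotinate permease TNA1 at -0.33 and BNA1 at -0.37.

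**Figure D4:**
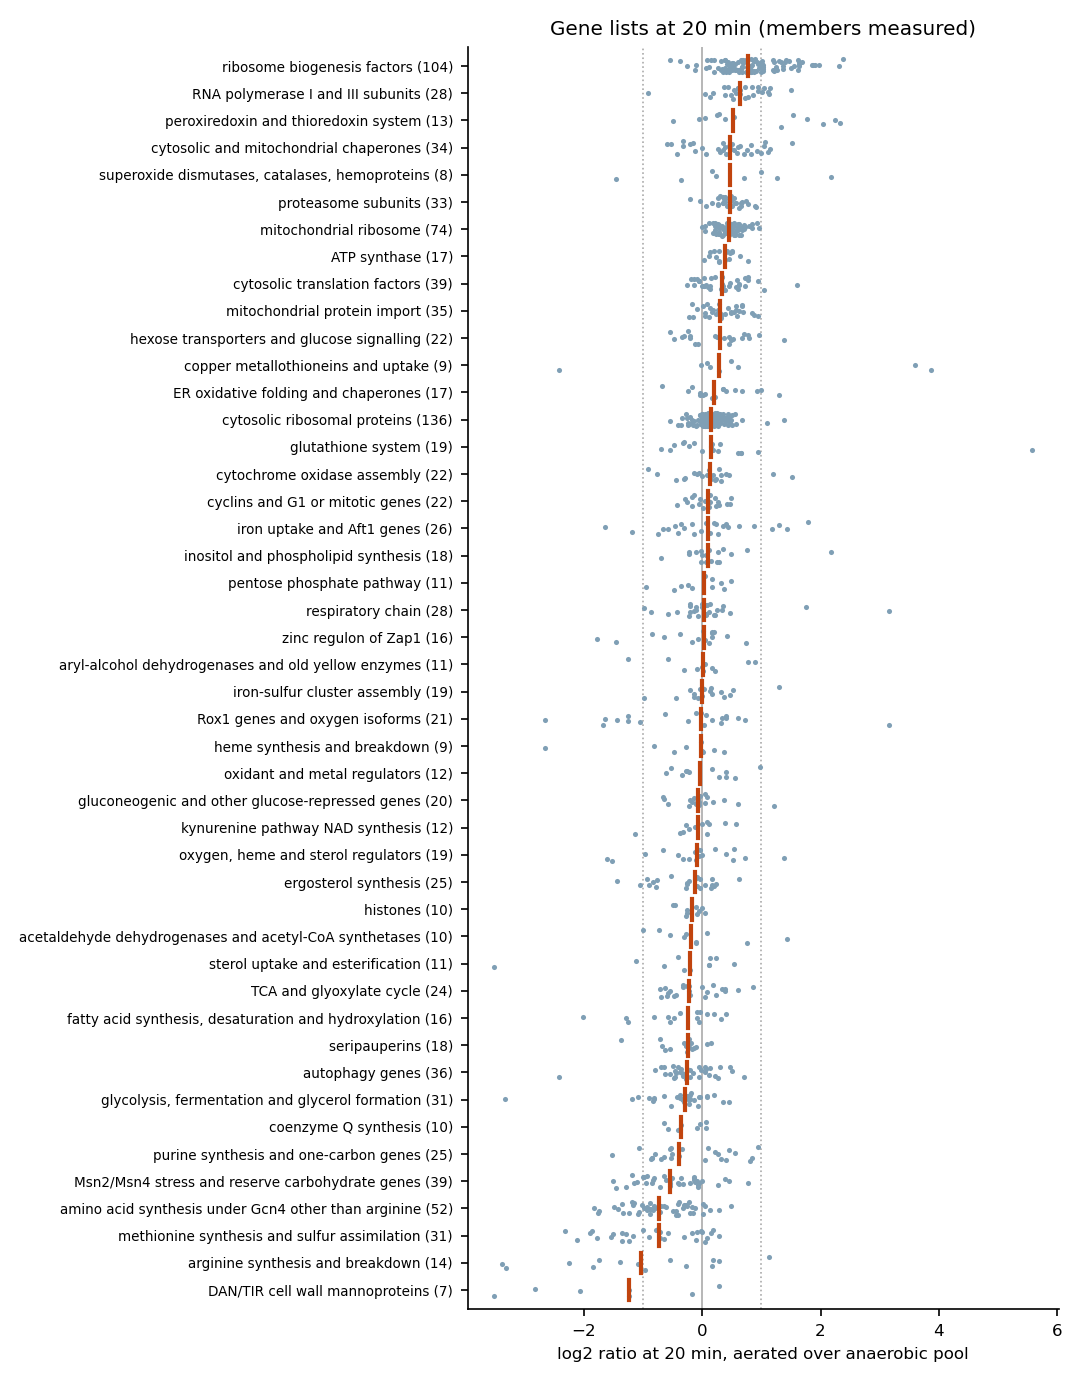
Log2 ratio at 20 min of every measured member of 46 gene lists (grey-blue points) with the list's median (red bar), ordered by median; the number measured stands in brackets and dotted lines mark 2-fold. Ribosome biogenesis factors have the highest median, 0.78, and the DAN/TIR mannoproteins the lowest, -1.24.

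Genes of ribosome production stood high. Of 104 ribosome biogenesis factors, 34 were at least 2-fold higher (32.7%, against 2.24% of all genes), none was 2-fold lower and 99 were above 0, with a median of 0.78. The median of the list was -0.02, 0.49, 0.78, 0.62 and 0.59 at 5, 10, 20, 60 and 120 min, against -0.14 in the self-hybridisation, where 35 members had a value and 1 was at least 2-fold higher. NOG2 had -0.07, 1.56, 2.38, 1.92 and 1.07 at 5, 10, 20, 60 and 120 min and no self-hybridisation value, and NOG1 had -0.06, 1.23, 2.31, 2.88 and 0.90 at 5, 10, 20, 60 and 120 min, also without one. Beside them were NOP15, a factor of the large subunit, at 1.98, REI1, a late cytoplasmic factor, at 1.91, UTP13 of the small-subunit processome at 1.87 and RLP7, a factor of the large subunit, at 1.86. Among the 35 members with a self-hybridisation value, 11 were at least 2-fold higher before its subtraction and 15 after. UTP23, a processome factor outside the list, was at 1.83. It was among the 4 genes past 2-fold in the self-hybridisation as well, where it was at -2.25, with the opposite sign.

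RNA polymerase I and III followed, with 6 of 28 at least 2-fold higher (21.4%, against 2.24% of all genes), 27 above 0 and a median of 0.64. The highest were RPA43 at 1.5, RPA135 at 1.15, RPA49 at 1.13 and RPC53 at 1.12, and the 1 gene below 0 was RRN6, an initiation factor of polymerase I, at -0.91. The 136 genes of cytosolic ribosomal proteins were close to the pool, with a median of 0.15 and 109 above 0. At least 2-fold higher were 2 (1.47%, against 2.24% of all genes), RPL22B at 1.39 and RPS27A at 1.1, and none was 2-fold lower. The median of the 136 genes was -0.42, -0.35, 0.15, 0.49 and -0.11 at 5, 10, 20, 60 and 120 min, against -0.12 in the self-hybridisation, so it was below the pool at 10 min and above it at 20 min. Of 39 translation factors, RPG1 at 1.61 and NIP1 at 1.04, both subunits of eIF3, were at least 2-fold higher (5.13%, against 2.24% of all genes), and the median was 0.33.

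Proteasome and chaperone genes also had positive medians. None of 33 proteasome genes passed 2-fold, but 31 were above 0 with a median of 0.47, from PUP1 at -0.20 to RPN9 at 0.91. The list had 0.10, 0.38, 0.47, -0.68 and -0.02 at 5, 10, 20, 60 and 120 min, against 0.01 in the self-hybridisation. Of 34 chaperone genes 5 were at least 2-fold higher (14.7%, against 2.24% of all genes) and none lower, namely YDJ1 at 1.51, HSP10 at 1.15, STI1 at 1.11, HSP31 at 1.06 and HCH1 at 1.04. Their median was 0.47 at 20 min and 0.27 in the self-hybridisation, so the background array leaned the same way. In the endoplasmic reticulum, KAR2, the main Hsp70 there, was at 1.29 with 0.61 in the self-hybridisation, and ERO1, the oxidase of disulfide formation, at 0.99.

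The genes under the stress activators Msn2 and Msn4 lay on the low side, with 6 of 39 at least 2-fold lower (15.4%, against 2.50% of all genes), none higher, 4 above 0 (49.8% of all genes were) and a median of -0.54. GSY2, the main glycogen synthase, had 0.12, -0.19, -1.5, -1.37 and -0.08 at 5, 10, 20, 60 and 120 min, against 0.38 in the self-hybridisation. CTT1 was at -1.46, RTN2 at -1.29 and PGM2, a phosphoglucomutase, at -1.19. The list's median was 0.23, 0.15, -0.54, -1.02 and 0.15 at 5, 10, 20, 60 and 120 min, above the pool at 5 and 10 min and below it at 20 and 60 min. HSP12 and HSP26 were exceptions at 0.46 and 0.26, and DDR48 was the highest at 0.77.

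**Figure D5:**
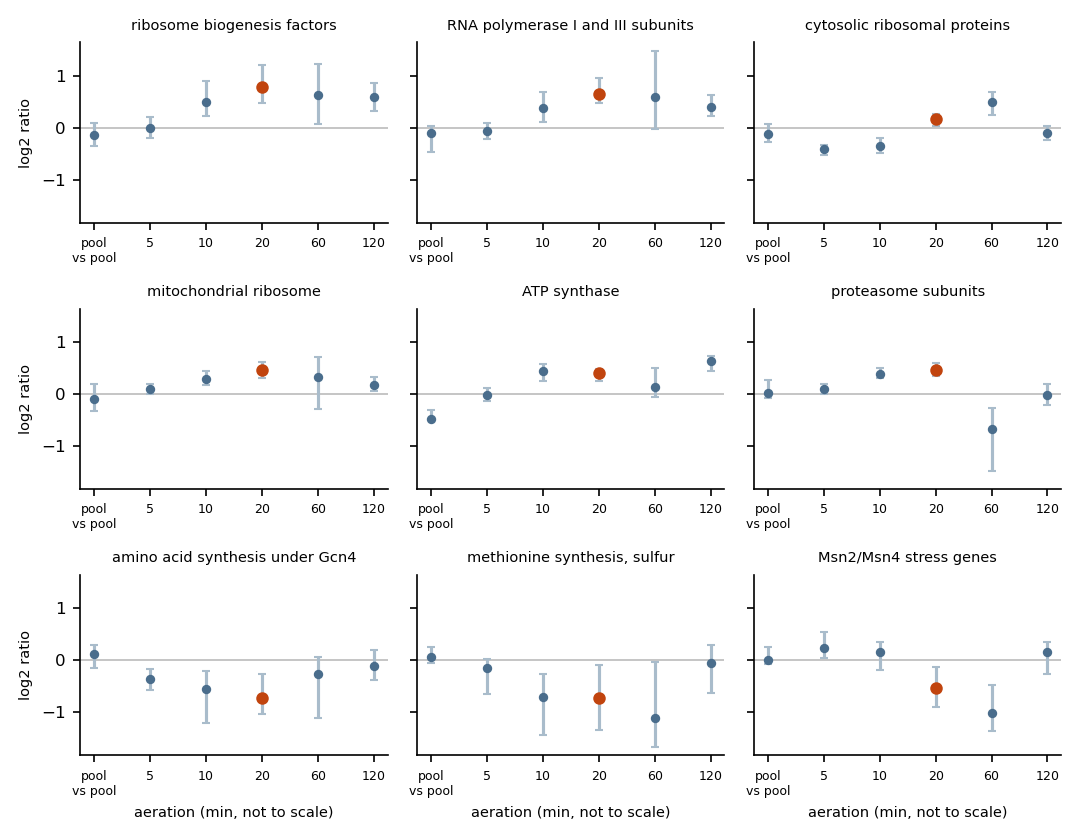
Median log2 ratio over the anaerobic pool (points) and interquartile range over genes (bars) of 9 gene lists in the pool against itself and at 5, 10, 20, 60 and 120 min of aeration (evenly spaced, not to scale), with 20 min in red. At 20 min the ribosome biogenesis factors are at 0.78 and the amino acid genes under Gcn4 at -0.73, and the ATP synthase genes are at 0.39 against -0.48 in the self-hybridisation.

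Glycolysis and fermentation genes had a median of -0.29, with 5 of 31 above 0 and 3 at least 2-fold lower (9.68%, against 2.50% of all genes). Those 3 were minor isoforms: ADH5, PYK2 at -1.18 and GPM2 at -1.09, the last with 1.33 in the self-hybridisation. The main enzymes were nearer the pool, such as ADH1 at -0.37, TDH3 at -0.26, CDC19 at -0.29 and PDC1 at -0.04, and the glycerol genes GPD1, GPD2 and GPP1 were at -0.90, -0.81 and -0.83. ALD6, the main cytosolic acetaldehyde dehydrogenase, was the 1 of 10 genes of acetate formation and use at least 2-fold higher (10%, against 2.24% of all genes). Its course was 1.57, 1.95, 1.44, 0.23 and 0.39 at 5, 10, 20, 60 and 120 min, against -0.22 in the self-hybridisation. ALD4 was at 0.75, ACS1 and ACS2 at 0.08 and -0.10, ALD2 at -0.10, ADY2 at -0.27, ACH1 at -0.31, ATO3 at -0.54, ALD5 at -0.73 and ALD3 at -1.0.

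Of 22 hexose transporter and glucose signalling genes only MIG2 passed 2-fold (4.5%, against 2.24% of all genes higher), and HXT4 was next at 0.96. HXT4 had 2.25, 2.74, 0.96, 0.15 and 0.69 at 5, 10, 20, 60 and 120 min, so 20 min was well below the 2 earlier times. Of 20 genes of glucose-repressed metabolism, the activator gene ADR1 alone passed 2-fold, at 1.22 (5%, against 2.24% of all genes higher). FBP1 and PCK1 of gluconeogenesis were at 0.37 and 0.04. INO1, the inositol-phosphate synthase, was the only 1 of 18 phospholipid genes past 2-fold (5.56%, against 2.24% of all genes higher). INO1 had 0.73, 0.61, 2.18, 0.87 and 4.64 at 5, 10, 20, 60 and 120 min and no self-hybridisation value. Its 120 min value was higher than that of 20 min. Cell-cycle genes were near the pool: none of 22 cyclin and related genes passed 2-fold, from RNR2 at -0.42 to CLN2 at 0.49. The 10 histone genes ran from -0.50 for HHT2 to 0.04 for HTZ1, with a median of -0.17 that was -0.20 in the self-hybridisation, and HTA1 was at -0.46, HHT1 at -0.27, HHF2 at -0.26, HHF1 at -0.25, HHO1 at -0.10, HTA2 at -0.08, HTB1 at -0.06 and HTB2 at 0.00. Of 36 autophagy genes 11 were above 0, with a median of -0.26. ATG41 alone was at least 2-fold lower (2.78%, near the 2.50% of all genes). It had -4.61, -2.86, -2.42, -0.36 and 0.96 at 5, 10, 20, 60 and 120 min.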

How the data were processed

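RNA of yeast aerated for 20 min was compared with a pool of anaerobic RNA on 2-colour microarrays. The values are log ratios that the authors normalized and deposited, taken as natural log ratios. No label states the base, and the lowest deposited value equals the natural log of 0.01, on which this reading rests. Each dye-swap pair was condensed to 1 sample, per the series' design text. How they normalized, corrected background or filtered is not given in the sources used here. Spot intensities were not used, and precision is limited by the number of arrays.

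Values were divided by the natural log of 2. Of 6495 features, 5754 had 1 gene symbol, 0 several and 741 none, and all 5754 were matched by identifier to the R64 table, used for names only. Features of a gene were averaged, for 25 genes. Genes past 2-fold were counted without a test. Limma 3.58.1 in R 4.3.3 compared 20 min with the other 4 times in a two-sided test over 5771 genes, adjusted by Benjamini-Hochberg, at a threshold of 0.05, and was tested on simulated data. Tables were handled with pandas 2.3.3 in Python 3.11.15. The members and lists were chosen with earlier results of these data known.

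Named by rule were the 25 highest and 25 lowest genes with a symbol, up to 4 members of a list past 2-fold in each direction (otherwise its highest and lowest), all members of lists of 12 or fewer and of the 2 lists of regulators, and the 10 largest differences in each direction in the limma comparison. Other genes were named after their values were seen. Promoter motifs were not analysed here. Alternatives were the log base, centring, scaling, the self-hybridisation subtracted, genes measured in all 6 samples, other fold thresholds, and, for limma, scaling, weights, a time covariate, missing values, each sample left out and, added after seeing the data, the sign at 5 and 10 min turned.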

Additional observations from a re-analysis of the deposited data

How the results depend on the processing

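With 1 sample there is no replicate at 20 min, the log base and direction rest on indirect evidence, and the self-hybridisation is 1 array with values for fewer genes. No paired analysis was possible because each time has 1 sample and no replicate numbers are shared. The 141 genes at least 2-fold higher became 57 if the values were log2, 65 among genes measured in all 6 samples, 490 at 1.5-fold and 42 at 3-fold. The 157 lower became 60 as log2, 451 at 1.5-fold and 47 at 3-fold. Subtraction of the self-hybridisation leaves only the 3515 genes with both values, of which 65 were at least 2-fold higher and 113 lower before it, and 220 and 215 after it. The median of the DAN and TIR genes, -1.24, was -0.86 as log2, -2.07 among genes in all 6 samples and -2.08 after subtraction. Among genes in all 6 samples the medians were -0.28 for heme, -0.52 for sterol uptake, 0.96 for peroxiredoxins and thioredoxins, 2.04 for copper and -1.202 for methionine and sulfur genes. After subtraction, with the median of the same members before it in brackets, they were 0.73 (0.39) for ATP synthase, 0.094 (0.23) for superoxide dismutases and catalases, 0.63 (0.098) for aryl-alcohol dehydrogenases and old yellow enzymes, 0.36 (-0.27) for oxidant and metal regulators, 0.27 (0.03) for iron-sulfur assembly, -1.60 (-1.08) for arginine and 0.093 (-0.095) for histones. For peroxiredoxins and thioredoxins, copper, and methionine and sulfur genes they were 1.01, 2.37 and -1.19, so the move from the median of all members came mostly with the smaller set of genes. The arginine median was -0.71 as log2. Members past 2-fold among the 104 ribosome biogenesis factors numbered 15 in place of 34 as log2, and among the 35 with both values 15 after subtraction, in place of 11. Limma called 0 genes under each of its 11 alternatives too, but with 1 sample set against 4 different times a count of 0 says nothing about stability. They gave 34 to 271 genes at an unadjusted p under 0.05 and a smallest adjusted p of 0.539, with array weights. The alternative with 5 and 10 min turned, chosen after seeing the data, gave 94. Without the 60 min sample the genes 2-fold above and below the range of the others numbered 16 and 16, in place of 9 and 6, without the 5 min sample 14 and 7, and with 5 and 10 min turned 24 and 29, of which 1 and 5 were the same genes. Centring on the median left every count within 1.5 times.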

Other observations

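Of the 680 unnamed features with a value at 20 min, 8 were at least 2-fold higher than the pool (1.18%) and 13 at least 2-fold lower (1.91%). Of the 5612 genes with a symbol, 133 were higher (2.37%) and 144 lower (2.57%). The 4 genes past 2-fold both at 20 min and in the self-hybridisation were UTP23, at 1.83 and -2.25, RRS1, a ribosome assembly factor, at 1.43 and -1.52, GPM2, at -1.09 and 1.33, and YOL153C, at -1.22 in each. Of these, 3 had opposite signs in the 20 min sample and the self-hybridisation. Between 20 min and 10 min, with the ratios as deposited, YLR162W differed by 3.38, OLI1 by 2.60 and ATP6 by 2.20, each higher at 20 min.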
